A study of Mus musculus with 40 samples.

Results

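Livers of 19 mice that received pioglitazone (Pio) were used to ask whether the response of hepatic gene expression to a high-fat diet (HFD) depended on hepatocyte PPARγ. These 19 mice, of 40 in the series, were taken by their group labels, and KO Pio mouse 13 was left out. They comprise 5 WT Pio, 5 WT HFD-Pio, 4 KO Pio and 5 KO HFD-Pio mice. The quantity reported is the HFD effect in KO mice (HFD-Pio minus Pio) minus the HFD effect in WT mice, on the log2 scale. A positive difference thus means that expression on HFD was higher, relative to control diet, in KO than in WT mice. The counts of the 2 genotypes were deposited in separate tables, and no level is compared across them.

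All mice were male, were given as C57BL6/J and were 5 months old at harvest, after 3 months of feeding from 2 months of age. WT Pio and KO Pio mice ate control diet with 0.01% Pio by weight, and WT HFD-Pio and KO HFD-Pio mice ate HFD, with 60% of calories from fat, and the same amount of Pio. KO mice carried loxP-flanked Pparg alleles and a Cre transgene driven by the albumin promoter, which acts in hepatocytes, so the other liver cells of KO mice still held the gene. WT mice were purchased C57BL6/J mice and not floxed littermates. A difference between the tables, such as a litter or library batch, therefore cannot be told apart from the genotype. Poly-A RNA of whole liver was sequenced, and fewer cells of a type cannot be distinguished from less RNA per cell.

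Pio is a thiazolidinedione, an agonist of the nuclear receptor PPARγ, which binds DNA with RXR and activates genes of lipid uptake and storage. PPARγ is most abundant in adipose tissue, and its hepatic expression is known to increase in fatty liver. The genes of cholesterol synthesis are known targets of SREBP2, a membrane-bound transcription factor that is released by cleavage when sterols in the endoplasmic reticulum are low. SREBP1c and ChREBP are the usual activators of fatty acid synthesis, and PPARα that of hepatic fatty acid oxidation. Bile acid synthesis from cholesterol starts with Cyp7a1.

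The 19 libraries held between 15788242 and 49857017 counts before rRNA genes were removed, with the widest range in WT HFD-Pio mice. A pair of WT Pio libraries stood apart. Counts from mitochondrially encoded mRNAs took 4.67% of WT Pio mouse 841 and 21.01% of WT Pio mouse 845, while the other 17 libraries held 5.25% to 10.9%. Mouse 841 was the only library of the 19 with a higher median Spearman rho to the other diet group of its genotype (0.984) than to its own group (0.976). For mouse 845 these values were 0.953 and 0.977. The excluded KO Pio mouse 13 had 0.851% mitochondrial counts and a median rho of 0.776 with its group. Counts and calls that changed most without mouse 841 or 845 are given without them as well.

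**Figure D1:**
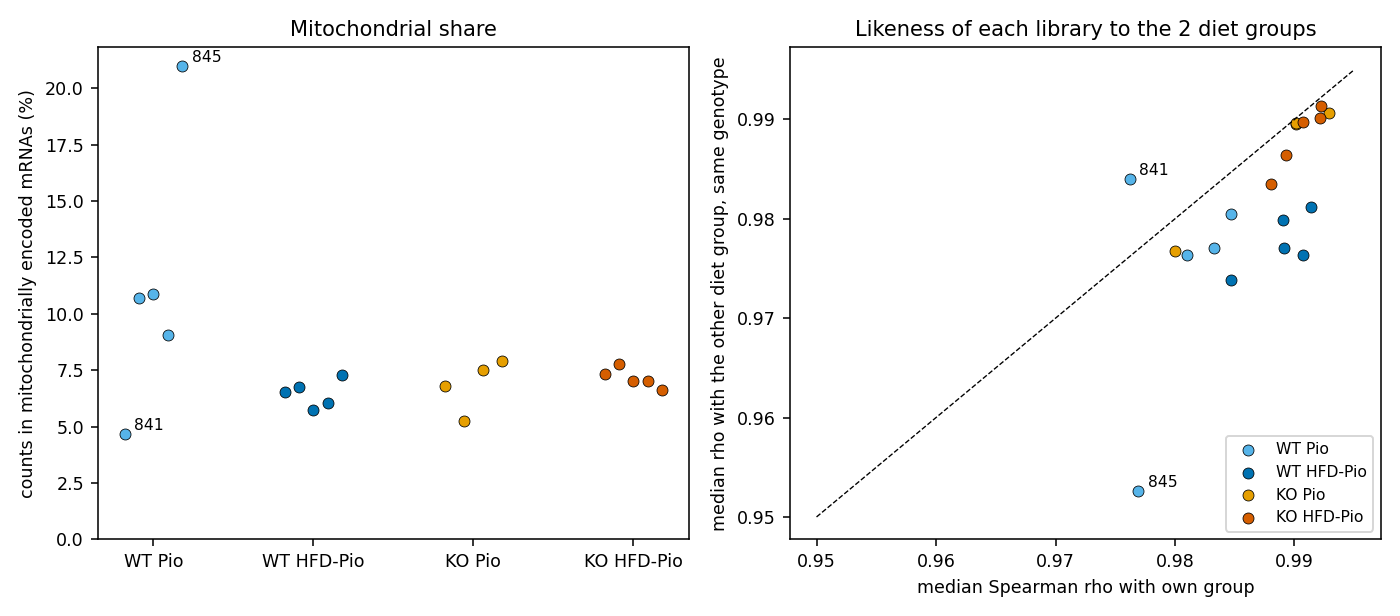
Left, percent of each library's counts in mitochondrially encoded mRNAs, by group. Right, for each of the 19 libraries, the median Spearman rho across genes with the mice of its own group (x axis) and of the other diet group of its genotype (y axis); points are mice, the dashed line marks equal values, and only mouse 841 (0.976 and 0.984) lies above it.

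Pparg (ENSMUSG00000000440) itself was low in every mouse. Its normalized CPM (counts scaled by library size with TMM factors) were 10.8, 12.6, 12.6, 12.0 and 14.6 in WT Pio mice and 11.2, 12.7, 9.70, 11.3 and 7.57 in WT HFD-Pio mice. KO Pio mice had 3.00, 6.67, 4.26 and 4.39, and KO HFD-Pio mice 5.29, 9.59, 6.77, 6.11 and 8.41. A gene count includes exons outside the deleted part and reads from non-hepatocytes, so these values do not measure the deletion. The diet groups overlapped in both genotypes. The HFD effect was -0.25 in WT and 0.66 in KO mice, and the difference of 0.90 (SE 0.33) did not pass the test (adjusted p = 0.316). Adjusted p-values here and below come from edgeR's quasi-likelihood test over all genes with Benjamini-Hochberg adjustment, and a gene is called where this value does not exceed 0.05. The main fit held 39 mice, which are all groups of the study without mouse 13.

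In the fit of 39 mice, more genes were called for HFD in WT than in KO mice under Pio. In WT mice 1119 of 12895 tested genes (8.68%) were called, 454 as higher (3.52%) and 665 as lower (5.16%) on HFD. That count was 2610 without mouse 841 and 279 without mouse 845. Counts of list members given below without either mouse are to be read beside these totals. The calls lost without mouse 845 included, with the same sign, those of Cav1, Epha2, Fabp4, Fasn, Gdf15, Ldha, Lepr, Mvd, Pck1, Plin5 and Scd1 (adjusted p from 0.0514 for Scd1 to 0.19 for Fabp4). That of Cav1 was also lost without mouse 841 (adjusted p = 0.108). In KO mice 12 genes (0.0931%) were called, 4 as higher (0.031%) and 8 as lower (0.062%). The difference of diet effects was called for a single gene, Fdft1 (0.00775% of genes), while 1346 genes had an unadjusted p under 0.05. The 40 genes with an adjusted p under 0.10 included 37 with a positive difference, and 9 of the 40 belong to the list of cholesterol synthesis genes. The wide gap between the counts of the genotypes is thus not a count of genes whose diet effects differed.

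When the model was fitted to the 19 Pio-fed mice alone, 47 genes of 12458 were called (0.377%). The common dispersion was 0.0506 in the fit of 39 mice and 0.0334 in that of 19, which also differed in mice and tested genes, and the part of each in the count was not tested. Of these, 39 had a positive (0.313%) and 8 a negative difference (0.0642%), and 14 were cholesterol synthesis genes. All 47 had the same sign in the fit of 39 mice, and 33 of them were called for HFD in WT mice there. That fit takes the difference from the same 19 libraries, and the WT effect is part of it. Neither count is therefore separate support. Of the 47 genes, 19 were called again in each of the 19 fits without a mouse, and 9 of those 19 are cholesterol synthesis genes. With DESeq2 the difference was called for 66 genes, and with limma and sample weights for 982. Without mouse 841 the fit of 39 mice called 239 genes, 121 higher and 118 lower, and without mouse 845 it called 0, as did 8 of the 39 such fits in all. The fit of 19 mice called 869 genes without mouse 841 and 27 without mouse 845.

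Across all 12895 genes, the HFD effects in WT and KO mice had a Pearson r of 0.306, as a description in which genes share libraries. Of the 454 genes that rose in WT mice, 312 (68.7%) had a positive effect in KO mice, against 49.7% of all genes. The median effect of the 454 was 0.51 in WT and 0.07 in KO mice. Of the 665 genes that fell in WT mice, 457 (68.7%) had a negative effect in KO mice, against 50.2% of all genes, with medians of -0.66 and -0.07. These WT effects were those that chose the genes, so their larger size in WT mice is not a result.

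**Figure D2:**
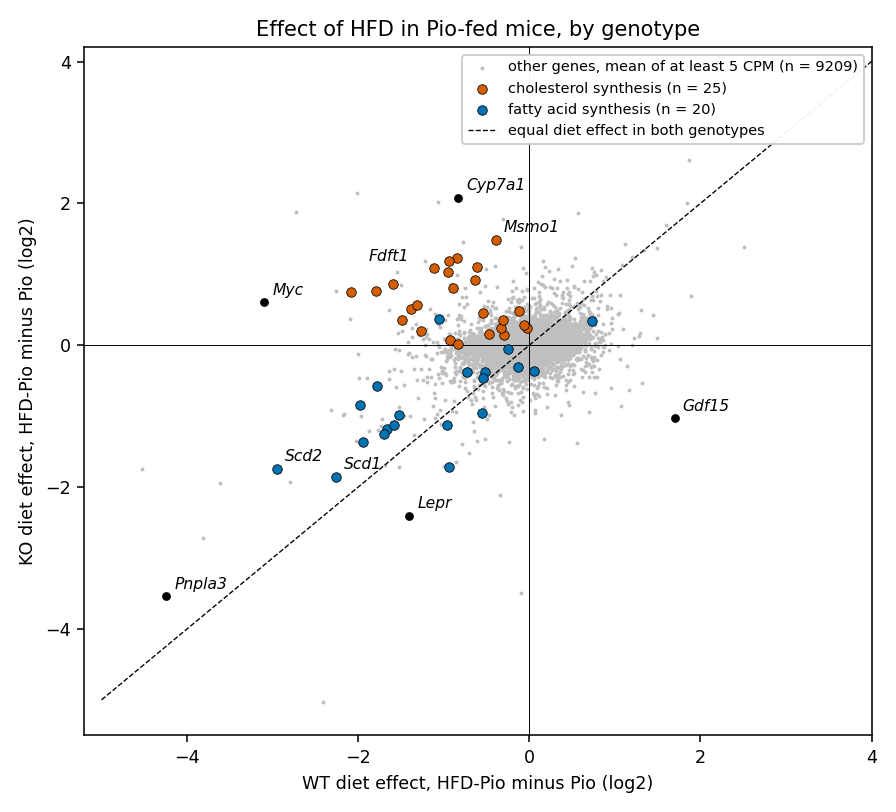
HFD effect under Pio in WT mice (x axis) and in KO mice (y axis), both log2, for genes averaging 5 CPM or more in the 19 mice. All 25 cholesterol synthesis genes lie above the dashed line of equal effects, and the fatty acid synthesis genes Scd1 and Scd2 are low in both genotypes.

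The clearest pattern was in cholesterol synthesis. All 25 listed genes had a negative HFD effect in WT mice and a positive one in KO mice. Their median effect was -0.84 in WT and 0.51 in KO mice, with a median difference of 1.70, while the medians of all genes were -0.02, -0.001 and 0.01. In WT mice 10 of the 25 fell (among them Acat2, Dhcr7, Fdft1, Fdps, Lss, Mvd, Pmvk, Sc5d and Sqle), against 5.16% of all genes, and 0 rose. Without mouse 841 the number that fell was again 10, and without mouse 845 it was 7. Those fits called 2610 and 279 of all genes in WT mice, in either direction. In KO mice 0 of the 25 were called in the fit of 39 mice. The difference had an unadjusted p under 0.05 with a positive sign for 20 of the 25, against 5.75% of all genes. In the fit of 19 mice, 16 of the 25 fell in WT mice (7.72% of all genes fell), 6 rose in KO mice (0.185% rose) and 14 were called for the difference. The 6 that rose were Fdft1, Hmgcs1, Hsd17b7, Idi1, Msmo1 and Mvk. The diet groups did not overlap, with lower values on HFD, for 12 of the 25 genes in WT mice (3.61% of all genes). They did not overlap, with higher values on HFD, for 8 of the 25 in KO mice (1.99% of all genes).

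Fdft1 (ENSMUSG00000021273) encodes squalene synthase, the first enzyme of the pathway committed to sterols. The gene lies at chr14:63145150-63179578 on the minus strand (GRCm38). Fdft1 had 154, 145, 179, 121 and 191 CPM in WT Pio mice and 76.2, 77.1, 68.96, 88.6 and 55.4 CPM in WT HFD-Pio mice. In KO Pio mice it had 65.0, 73.2, 42.1 and 50.7 CPM, and in KO HFD-Pio mice 140, 99.3, 120, 128 and 125 CPM. Every WT mouse was lower, and every KO mouse higher, on HFD than on control diet. The log2 effect was -1.11 in WT mice (SE 0.26, adjusted p = 0.00826) and 1.08 in KO mice (SE 0.28, adjusted p = 0.127), a difference of 2.19 (SE 0.38, adjusted p = 0.0232). In the fit of 19 mice the difference had an adjusted p of 6.39e-05 and the KO effect one of 0.00372. Without mouse 841 the adjusted p of the difference was 0.00698, and without mouse 845 it was 0.0579. Exons of Ctsb on the other strand overlap 18.3% of the exon bases of Fdft1, and the strand setting of the counting is not given in the sources used here. For Ctsb the difference was 0.22 (adjusted p = 0.822).

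The steps up to farnesyl diphosphate showed the same order. Hmgcs1, the cytosolic HMG-CoA synthase, had 584, 316, 503, 457 and 399 CPM in WT Pio and 248, 314, 219, 302 and 176 CPM in WT HFD-Pio mice. In KO Pio mice it had 381, 391, 141 and 226 CPM, and in KO HFD-Pio mice 836, 478, 611, 700 and 727 CPM. The diet groups did not overlap in either genotype, and they lay in opposite order. The difference of Hmgcs1 was 2.08 (SE 0.48, adjusted p = 0.0732, and 0.0119 in the fit of 19 mice). Mevalonate kinase, Mvk, had 24.5 to 36.1 CPM in WT Pio, 17.7 to 23.5 in WT HFD-Pio, 14.3 to 21.8 in KO Pio and 27.5 to 45.4 in KO HFD-Pio mice, again without overlap within a genotype. Its difference was 1.71 (SE 0.36, adjusted p = 0.0524, and 0.000342 in the fit of 19 mice). Mvd, which decarboxylates mevalonate diphosphate, fell by 1.59 in WT mice with a KO effect of 0.87 and a difference of 2.46. The isomerase Idi1 and the farnesyl diphosphate synthase Fdps had differences of 2.13 and 1.85.

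Beyond Fdft1, Sqle encodes squalene epoxidase, a second control point of the pathway. Sqle had 139, 65.4, 128, 122 and 89.0 CPM in WT Pio and 18.0, 27.4, 23.3, 53.8 and 34.7 CPM in WT HFD-Pio mice. KO Pio mice had 111, 148, 55.7 and 59.9 CPM, and KO HFD-Pio mice 205, 106, 160, 139 and 186 CPM. The WT groups were separate and the KO groups overlapped. The difference of Sqle was 2.55 (SE 0.61, adjusted p = 0.0822, and 0.0166 in the fit of 19 mice). Lanosterol synthase, Lss, differed by 1.88 and the lanosterol demethylase Cyp51 by 1.98. The C4-demethylation enzymes Msmo1, Nsdhl and Hsd17b7 differed by 1.87, 1.70 and 1.56. Msmo1 had the highest KO effect of the list (1.48) beside a WT effect of -0.39.

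Dhcr7 carries out the last reduction to cholesterol. Dhcr7 had 302, 319, 343, 273 and 334 CPM in WT Pio and 125, 121, 92.9, 146 and 117 CPM in WT HFD-Pio mice, with no overlap. In KO Pio mice it had 161, 167, 73.8 and 98.6 CPM, and in KO HFD-Pio mice 221, 140, 190, 175 and 166 CPM, with overlap. Dhcr7 fell by 1.38 in WT mice (SE 0.26, adjusted p = 0.00127), and the difference was 1.90 (SE 0.37, adjusted p = 0.0517, and 0.00133 in the fit of 19 mice). Among other late enzymes, Sc5d differed by 0.86, Tm7sf2 by 0.35 and Ebp by 0.27.

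Regulators and carriers of the list had small differences. These were 0.60 for the transcription factor Srebf2, 0.64 for Insig1, which retains the SREBP complex in the endoplasmic reticulum, and 0.66 for the sterol carrier Stard4. In neither fit were these called for the difference. Genes outside the list and named after their values were seen included Mmab, which acts in cobalamin metabolism and neighbours Mvk, with a difference of 1.31 (SE 0.28, adjusted p = 0.0524, and 0.000342 in the fit of 19 mice). Another was 0610007P14Rik, the mouse homologue of the sterol scaffold protein ERG28, with a difference of 1.305 (adjusted p = 0.0606, and 0.000574 in the fit of 19 mice). Tmem97, a sterol-responsive membrane protein, differed by 0.98 (adjusted p = 0.0709, and 0.0107 in the fit of 19 mice).

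The sign of the cholesterol pattern did not rest on 1 mouse. In the 39 fits that each omitted a mouse, all 25 genes kept a positive difference and the list median lay between 1.49 and 1.80. The number called ranged from 0 to 11. Of these fits, 20 omitted a mouse without drug, which enters the difference only through the shared spread and scaling. Only the fits that omitted a Pio-fed mouse thus bear on the sign. The ends of the median range came without KO Pio mice 14 (1.49) and 12 (1.80). In the fits of the Pio-fed mice alone, 9 to 18 of the 25 were called. Without mouse 841 the median was 1.59 with 9 called, and without mouse 845 it was 1.68 with 0 called. With mouse 13 included, 23 of the 25 were positive, and Srebf2 and Tm7sf2 turned negative.

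**Figure D3:**
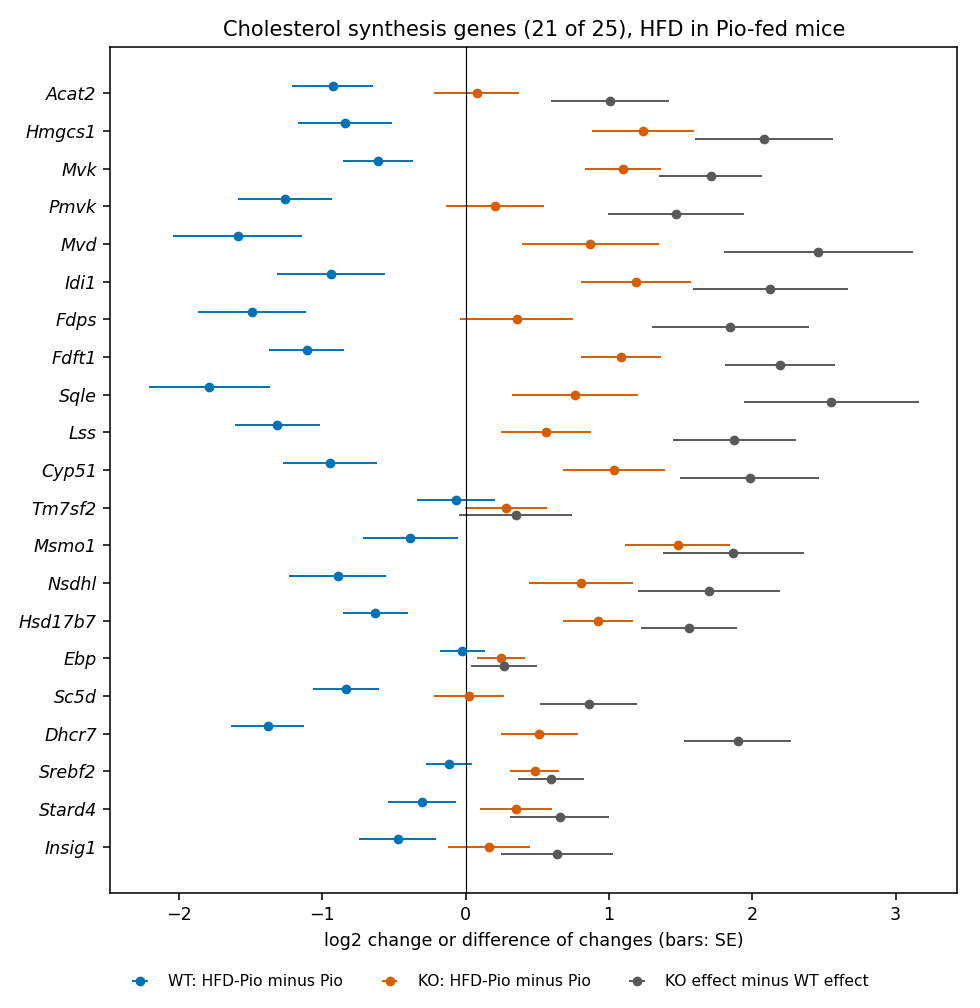
HFD effect under Pio in WT mice (blue) and KO mice (orange) and the difference KO minus WT (grey) for 21 of the 25 cholesterol synthesis genes in pathway order; x axis log2, bars are standard errors. WT points are all at or below 0 and KO points all at or above 0, with wide differences at Sqle (2.55), Mvd (2.46) and Fdft1 (2.19).

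Promoter sequences of the list are shown because its members moved together. RefSeq windows of 250 bases before to 50 bases after the start (GRCm38.p6) were held for 17 of the 25 genes. The CCAAT box, the site of NF-Y, which is a known partner of SREBP2, was searched on both strands in every window of a gene. It was found in 16 of the 17, against 41.1% of all 27025 genes with a window and 42.7% of the 9813 tested here. The exception was Acat2. The sterol response element letters TCACNCCAC were found on either strand in 1 of the 17, Hmgcs1, against 1.44% of the 27025 genes and 1.52% of those tested here. Both motifs were chosen after the values were seen, and a match is a description of letters and not of binding. Of the genes with values in every mouse or group above, Hmgcs1, Mvk and Dhcr7 have a window, and Cyp51 is added for its difference of 1.98. Capitals mark the motif in each gene's own 5′ to 3′ direction, CCAAT in the first 3 and TCACNCCAC in the last, at chr5:4104712-4104736 (minus strand), chr7:143830119-143830143 (plus), chr5:114444209-114444233 (plus) and chr13:119690204-119690232 (plus).
Cyp51: ctgtccgccaCCAATctggtcctga
Dhcr7: actgccttcaCCAATcacaggacgc
Mvk: aatgtttgacCCAATctgtaaagga
Hmgcs1: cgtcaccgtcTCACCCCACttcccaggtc

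Cyp7a1, the rate-limiting enzyme of classical bile acid synthesis from cholesterol, also had HFD effects of opposite sign in the 2 genotypes. The gene lies at chr4:6265612-6275633. Cyp7a1 had 40.3, 83.0, 56.3, 39.9 and 49.3 CPM in WT Pio and 35.4, 31.96, 20.7, 35.0 and 27.8 CPM in WT HFD-Pio mice. KO Pio mice had 58.4, 81.8, 38.4 and 38.1 CPM, and KO HFD-Pio mice 226, 209, 254, 157 and 295 CPM. No diet groups overlapped, and the KO groups were the further apart. Cyp7a1 rose by 2.08 in KO mice (SE 0.44, adjusted p = 0.0422), with a WT effect of -0.83 (SE 0.40, adjusted p = 0.18). The difference was 2.91 (SE 0.59, adjusted p = 0.0517, and 0.000342 in the fit of 19 mice). Of 21 tested genes of bile acid synthesis and transport, 3 rose in WT mice (0 without mouse 845), against 3.52% of all genes. Cyp7a1 rose in KO mice, where 0.031% of all genes rose. Without WT Pio mouse 845 that call was lost, and 0 of the 21 were called in KO mice. The median difference of the 21 was 0.15, so the size seen at Cyp7a1 was not shared by the list. Cyp8b1, the 12α-hydroxylase, had effects of 0.11 in WT and 0.89 in KO mice.

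**Figure D4:**
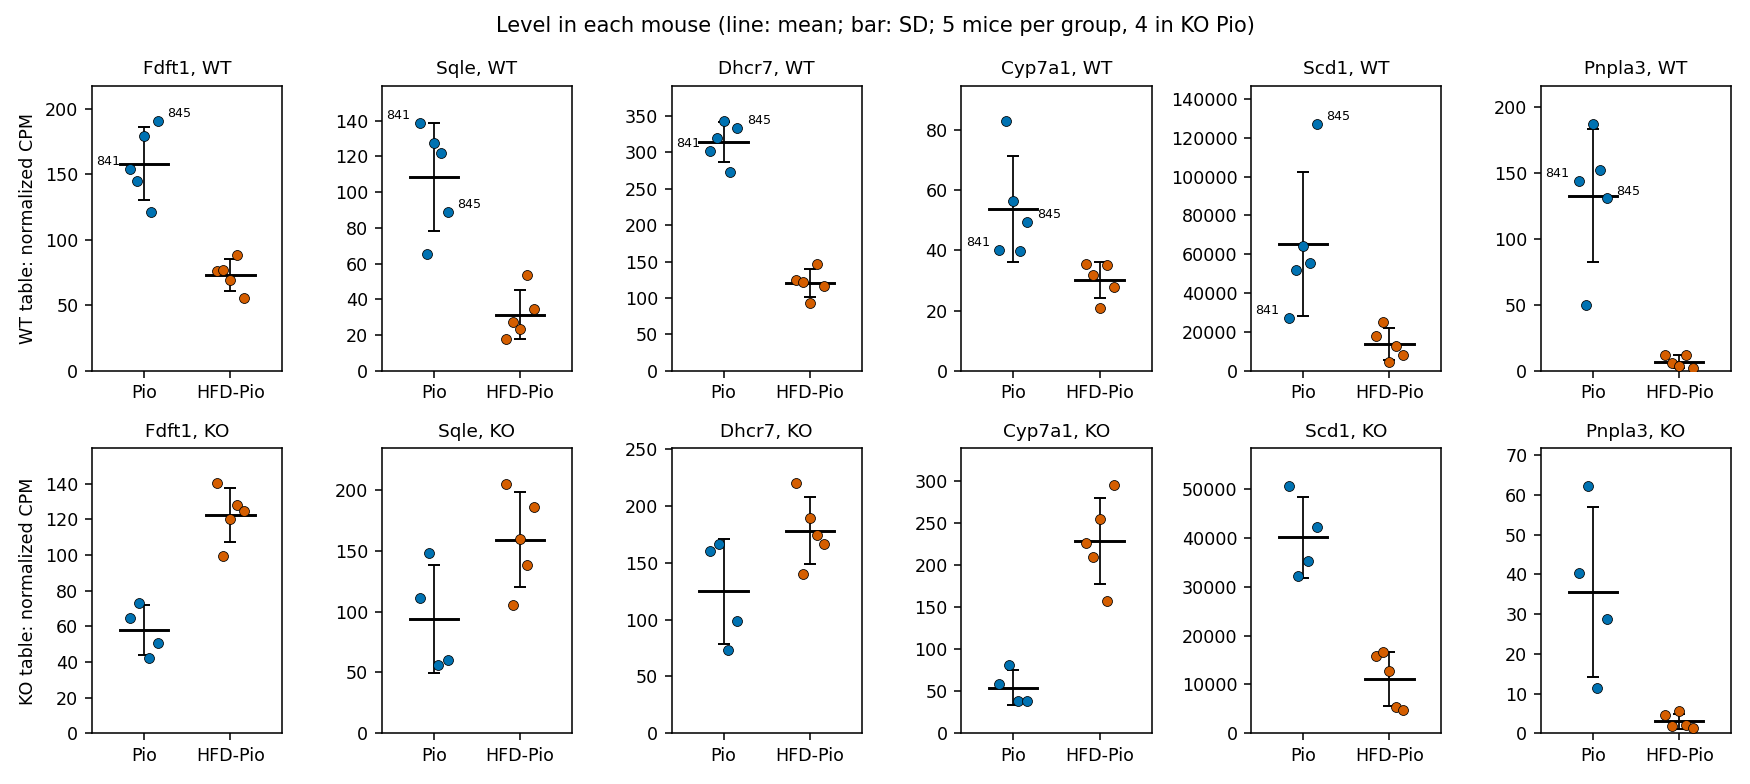
Normalized CPM of 6 genes in each mouse, WT mice above and KO mice below, each panel with its own y axis from 0; points are mice, lines are group means and bars are SD (n = 5, and 4 in KO Pio). Fdft1 and Cyp7a1 are lower on HFD in WT and higher in KO mice, while Pnpla3 and Scd1 are lower on HFD in both genotypes; mice 841 and 845 are marked.

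The 8 genes with a called negative difference in the fit of 19 mice were Gdf15, Eda2r, Hes1, Slc25a29, Acot1, Dll1, Epha2 and Baiap2, and 0 of them passed in the fit of 39 mice. Gdf15, a secreted stress cytokine, had 19.1, 7.61, 4.16, 5.24 and 7.03 CPM in WT Pio and 38.7, 35.2, 24.7, 24.2 and 19.3 CPM in WT HFD-Pio mice. In KO Pio mice it had 22.2, 26.5, 13.0 and 22.2 CPM, and in KO HFD-Pio mice 10.4, 6.47, 8.90, 19.9 and 5.61 CPM. The WT groups nearly met at mouse 841, and the KO groups overlapped. Gdf15 rose in WT mice (1.70, adjusted p = 0.0319), the KO effect was -1.03, and the difference was -2.73 (SE 0.72, adjusted p = 0.134, and 0.0395 in the fit of 19 mice). Only 4 of the 19 fits without a mouse called it.

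Hes1, a transcriptional repressor induced by Notch, had 7.83 to 11.4 CPM in WT Pio, 13.6 to 19.4 in WT HFD-Pio, 10.7 to 31.2 in KO Pio and 7.55 to 11.4 in KO HFD-Pio mice. The WT groups were separate and the KO groups overlapped. Its difference was -1.65 (SE 0.42, adjusted p = 0.115, and 0.0193 in the fit of 19 mice), and that of the Notch ligand Dll1 was -1.25 (adjusted p = 0.131, and 0.0358 in the fit of 19 mice). Epha2, an ephrin receptor tyrosine kinase, rose in WT mice (0.81, adjusted p = 0.0316) and differed by -1.15 (adjusted p = 0.217, and 0.0167 in the fit of 19 mice). Hes1 and Epha2 were called in all 19 fits without a mouse, Dll1 in 8 and Acot1 in 13 of them. Acot1, a cytosolic acyl-CoA thioesterase that PPARα induces and that has near-identical paralogs, had 7.66 to 16.5 CPM in WT Pio and 22.3 to 29.1 in WT HFD-Pio mice. In KO mice Acot1 had 10.9 to 16.5 CPM on control diet and 7.12 to 13.1 on HFD, and the difference was -1.44 (adjusted p = 0.321, and 0.0269 in the fit of 19 mice).

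Fatty acid synthesis genes fell on HFD in WT mice, with estimates of the same sign in KO mice. Of 20 tested genes, 10 fell in WT mice (5.16% of all genes fell), 0 were called in KO mice (0.062% fell) and 0 were called for the difference in either fit. Without mouse 845 the number that fell in WT mice was 5, where 279 of all genes were called in either direction. The estimate was negative for 18 of the 20 in each genotype. The median effects were -1.01 in WT and -0.90 in KO mice, with a median difference of 0.38. Scd1, the stearoyl-CoA desaturase, had 27310 to 127300 CPM in WT Pio, 4297 to 24970 in WT HFD-Pio, 32330 to 50770 in KO Pio and 4848 to 16580 in KO HFD-Pio mice. The diet groups did not overlap in either genotype. Scd1 fell by 2.26 in WT mice (adjusted p = 0.00787), the KO effect was -1.85 (adjusted p = 0.236), and the difference was 0.41 (adjusted p = 0.873). Fatty acid synthase, Fasn, fell by 1.70 in WT mice beside a KO effect of -1.25. Acly, which supplies cytosolic acetyl-CoA, fell by 1.98 in WT mice beside -0.85 in KO mice, a difference of 1.13 (SE 0.57, adjusted p = 0.486). Scd2 was at -2.95 in WT mice and -1.74 in KO mice.

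A few genes changed with HFD in both genotypes. Of the 12 genes called in KO mice, 7 were called in the same direction in WT mice. Pnpla3, a lipid droplet protein whose expression follows SREBP1c, had 144, 50.03, 187, 152 and 131 CPM in WT Pio and 11.7, 5.86, 3.36, 12.1 and 1.77 CPM in WT HFD-Pio mice. KO Pio mice had 40.3, 62.1, 11.3 and 28.7 CPM, and KO HFD-Pio mice 4.64, 1.72, 5.56, 2.10 and 1.26 CPM. Every HFD-Pio mouse lay below every Pio mouse of its genotype. Pnpla3 fell by 4.24 in WT mice (adjusted p = 0.000348) and by 3.54 in KO mice (adjusted p = 0.0374), and the difference was 0.70 (SE 0.93). An error of this size does not separate the difference from 0 in either direction.

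Lepr, the leptin receptor, had 7.38 to 13.6 CPM in WT Pio, 2.37 to 6.54 in WT HFD-Pio, 18.6 to 33.7 in KO Pio and 3.06 to 7.29 in KO HFD-Pio mice. It fell by 1.401 in WT mice (adjusted p = 0.017) and by 2.40 in KO mice (adjusted p = 0.00417), a difference of -1.004 (SE 0.53). Ces1b, a hepatic carboxylesterase whose paralogs could share reads, rose by 0.86 in WT and 0.90 in KO mice, with a difference of 0.04 (SE 0.21). Aox3, an aldehyde oxidase, rose by 1.08 and 1.13, with a difference of 0.05 (SE 0.31). For Ces1b and Aox3 the estimates were near 0 with small errors.

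Genes of fatty acid oxidation rose on HFD in WT mice. Of 25 tested genes of mitochondrial oxidation, 8 rose in WT mice (among them Acadm, Acads, Cpt2, Eci2, Hadhb and Slc25a20), against 3.52% of all genes, and 0 were called in KO mice, where 0.031% of all genes rose. The number that rose in WT mice was 16 without mouse 841 and 2 without mouse 845. Those fits called 2610 and 279 of all genes in WT mice, in either direction. The median effects were 0.42 and 0.20, with a median difference of -0.24. Of 25 genes of peroxisomal and omega oxidation, 6 rose (2 without mouse 845) and 1 fell in WT mice, with medians of 0.43 in WT and 0.02 in KO mice. Crot, which exports chain-shortened acyl groups from peroxisomes, had 207 to 305 CPM in WT Pio, 465 to 548 in WT HFD-Pio, 345 to 547 in KO Pio and 508 to 650 in KO HFD-Pio mice. It rose by 1.04 in WT mice (adjusted p = 0.00133) beside 0.46 in KO mice, and the difference was -0.58 (adjusted p = 0.462). Neither list had a called difference in the fit of 39 mice, and Acot1 alone was called in that of 19 mice.

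Genes of the adipogenic programme did not share a direction. Of the 7 exemplar genes of the study, Cav1, a caveolar coat protein, and Fabp4, a fatty acid binding protein, fell in WT mice on HFD, by 0.94 (adjusted p = 0.0444) and 1.89 (adjusted p = 0.0295). Their differences were 1.55 (SE 0.44, adjusted p = 0.175) and 1.44 (SE 0.80, adjusted p = 0.526). The lipid droplet genes Cidec and Plin4 differed by -0.38 and -0.53, the transporter Cd36 by -0.10, the acyltransferase Mogat1 by -0.18 and the protease Cfd by -0.97, none of which passed. Cfd and Mogat1 had at most 0.305 CPM in every KO mouse, where a diet effect could not be measured well. The coat protein Plin5 rose by 0.75 in WT mice (adjusted p = 0.0341), and the difference was -0.97 (adjusted p = 0.263).

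**Figure D5:**
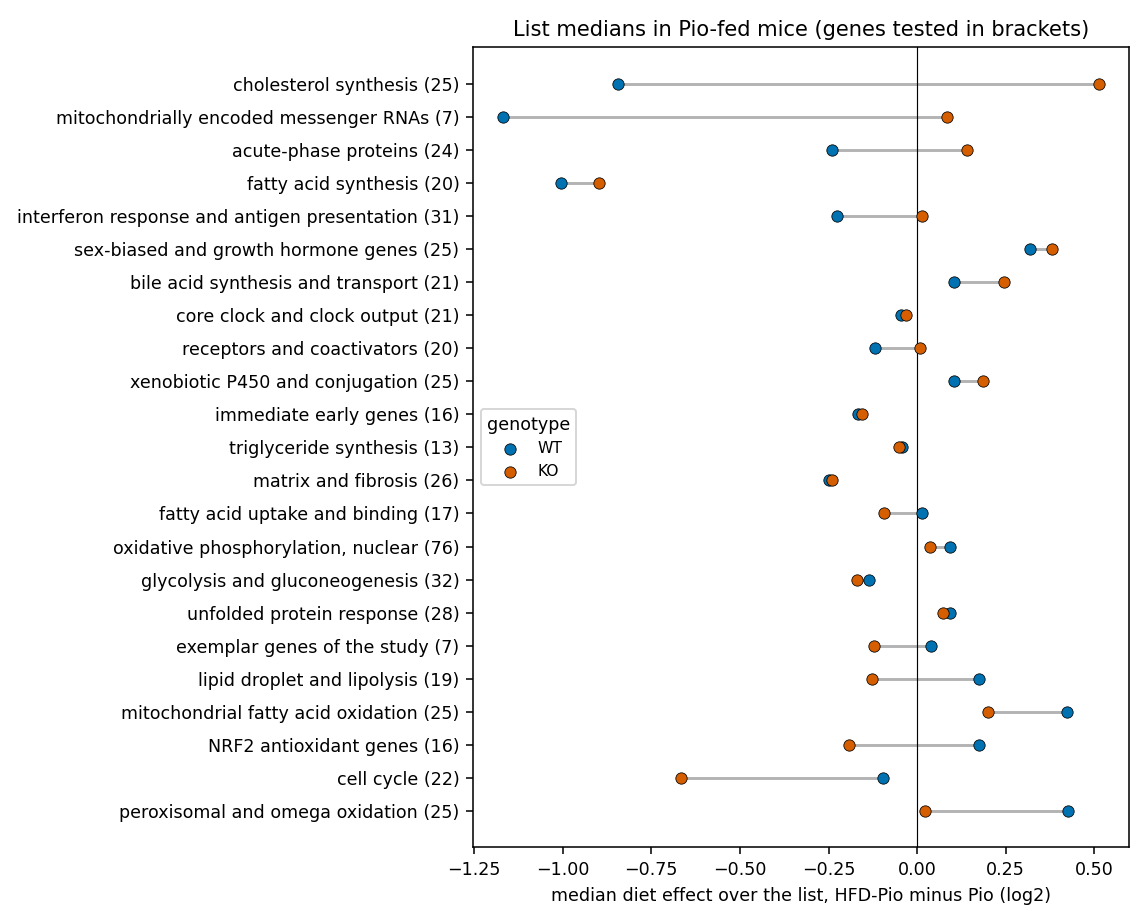
Median HFD effect under Pio over each of 23 gene lists, with the number of tested genes in brackets, in WT mice (blue) and KO mice (orange); x axis log2, lists ordered by their median difference. Cholesterol synthesis (-0.84 and 0.51) and mitochondrially encoded mRNAs (-1.17 and 0.08) have the widest gaps, while fatty acid synthesis is at -1.01 and -0.90.

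Mitochondrially encoded mRNAs had the second-largest list difference. Of 7 tested genes, 5 fell in WT mice, against 5.16% of all genes, with a median effect of -1.17 in WT and 0.08 in KO mice. The number that fell was 7 without mouse 841 and 2 without mouse 845. Those fits called 2610 and 279 of all genes in WT mice, in either direction. The gene mt-Nd5, a subunit of complex I, had 5159, 16870, 14310, 13250 and 44210 CPM in WT Pio mice and 5458 to 8091 in WT HFD-Pio mice. KO mice had 5727 to 10100 CPM on control diet and 9564 to 10570 on HFD. The size of the WT effect varied with the libraries that stood apart. Mouse 841 was below every HFD-Pio mouse and mouse 845 far above all others. The WT effect of mt-Nd5 was -1.48 (adjusted p = 0.00166), -1.72 without mouse 841 (adjusted p = 2.21e-05) and -0.89 without mouse 845 (adjusted p = 0.0223). The difference of mt-Nd5 was 1.68 (adjusted p = 0.0888), 1.92 without mouse 841 (adjusted p = 0.00585) and 1.09 without mouse 845 (adjusted p = 0.272). The 76 tested nuclear genes of oxidative phosphorylation had medians near 0 in both genotypes. Cell cycle genes had a median of -0.10 in WT and -0.67 in KO mice, with 0 of 22 called. Acute-phase genes differed by a median of 0.52, with 20 of 24 positive and 0 called. Apart from cholesterol synthesis, Cyp7a1 and Acot1, no listed gene was called for the difference in either fit. In WT mice, 5 of 17 genes of fatty acid uptake and binding and 2 of 13 of triglyceride synthesis fell, and 2 of 19 lipid droplet genes rose while 3 fell, beside 3.52% of all genes that rose and 5.16% that fell. Without mouse 845, 1 of the 17 and 1 of the 13 fell. In KO mice 1 lipid droplet gene fell, against 0.062% of all genes. Of 32 glycolysis and gluconeogenesis genes, Pck1 and Ldha rose and Ppargc1a fell in WT mice. The 25 xenobiotic and conjugation genes had 0 calls in either genotype, and each list not described had at most 3 in WT and 0 in KO mice.

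The same difference of diet effects was computed in the 20 mice without drug, which are separate animals. Some of these libraries also stood apart. Median Spearman rho with the own group was 0.942 for WT control mouse 832 and 0.953 for WT HFD mouse 829. It was 0.957 for KO HFD mouse 9, whose summed neutrophil markers were 287.9 CPM (next 19.86 in its group). The common dispersion within a group was 0.0915 in WT control, 0.0798 in WT HFD, 0.0605 in KO HFD and 0.0336 in KO control mice. The difference without drug was called for 136 genes (1.05%), of which 81 were higher (0.628%). Cholesterol synthesis had a median difference of 1.48 there, with 24 of 25 genes positive and 8 called as higher, so the same order of the genotypes was also measured without Pio. The difference under Pio minus that without drug had a median of 0.08 over the list and was called for 0 of the 25. In all it was called for 8 genes (0.062%), while 1981 had an unadjusted p under 0.05. Cyp7a1 was 1 of the 8. Its difference was 2.91 under Pio and -1.64 without drug, a change of 4.54 (SE 0.81, adjusted p = 0.0358). The others were Gm23119 (3.09), a small Cajal body RNA, Fbl (1.57), which encodes fibrillarin, and Cyp2j6 (1.28), a P450. They also included Snrnp70 (1.16), a spliceosomal protein, Swi5 (1.12), a recombination protein, Tnfaip2 (-2.05) and the antisense gene Gm14286 (-2.83). Without mouse 841 the number called was 268, and without mouse 845 it was 4.

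Summed CPM of cell type markers were compared between diets within each genotype by a two-sided exact permutation test, whose smallest possible p is 0.00794. The 6 hepatocyte markers were abundant in all 19 mice. Their sum had an effect of 0.25 in WT mice (exact p = 0.175) and -0.18 in KO mice (exact p = 0.206). The exact p was 0.00794 in WT mice without WT Pio mouse 842 and 0.0286 in KO mice without KO HFD-Pio mouse 16. With any other mouse left out it was at least 0.107. The adipocyte sum was higher on HFD in WT mice (by 0.50 on the log2 scale, exact p = 0.0317, and 0.0556 without mouse 841 or 0.0635 without mouse 845) and in KO mice (by 1.15, exact p = 0.00794). It ranged from 2712 to 5017 CPM in WT Pio, 4174 to 5815 in WT HFD-Pio, 573 to 925 in KO Pio and 1193 to 2401 in KO HFD-Pio mice. Nearly all of this sum was Car3, and the defining markers Adipoq, Lep and Plin1 were at most 0.529 CPM in every mouse. Of the 5 tested adipocyte markers, 2 fell in WT mice (0 without mouse 845), against 5.16% of all genes, and 0 rose. The median effect of the 5 was -1.02 in WT and -0.48 in KO mice, opposite in sign to the effect on the sum. The acinar sum, nearly all Cela1, was higher by 1.25 in WT and 1.12 in KO mice (exact p = 0.00794 for each), with Prss1 and Amy2a5 at 0. The T and B cell sum was higher by 0.48 in KO mice (exact p = 0.0159) beside -0.29 in WT mice (exact p = 0.246). It was low, at no more than 9.3 CPM in KO mice. Of its members, Cd4 had 1.12 to 4.28 CPM in KO Pio and 3.37 to 5.85 in KO HFD-Pio mice. Cd3d, Cd8a, Cd79a and Ms4a1 were at most 0.901 CPM in every KO mouse. The skeletal muscle sum was higher by 0.17 in WT mice (exact p = 0.0159), at no more than 0.19 CPM. The summed stellate markers had an effect of -0.35 in WT mice (exact p = 0.0635, and 0.0397 without mouse 841), and the macrophage, neutrophil, endothelial, cholangiocyte and erythroid sums had exact p-values of 0.27 or more in both genotypes. These p-values are not adjusted over the 24 tests, which include the mitochondrial sums (-0.77 in WT mice, exact p = 0.0794 and 0.00794 without mouse 841, and 0.06 in KO mice, exact p = 0.921). The part of these cells in the results above was not tested.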

How the data were processed

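Hepatic poly-A RNA was sequenced in 40 mice. The authors aligned reads to GRCm38 with STAR 2.0.4b, counted uniquely aligned reads per Ensembl gene with featureCounts 1.4.5, and deposited raw counts without normalization, in 1 table per genotype. The tables were joined on Ensembl gene identifier (40594 genes; 96 only in the WT table), and 355 rRNA genes were removed. In R 4.3.3, edgeR 4.0.16 (TMM, robust quasi-likelihood) was fitted to 8 group means of 39 mice, without KO Pio mouse 13. A gene was tested if 5 or more mice had 1 CPM or more, and Benjamini-Hochberg adjustment was made over the 12895 genes that remained. Errors of fold changes are standard errors. The script was tested on simulated data. Limma 3.58.1 and DESeq2 1.42.0 served as alternatives, Python 3.11.15 for joins, exact tests and figures. Other alternatives were RLE size factors, no filter, the 19 Pio-fed mice alone, mouse 13 included, and each mouse left out. The leave-one-out fits of the 19 mice and the list counts without mice 841 and 845 were added after the data were seen.

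The 23 pathway and 11 marker lists, the members and the tests were chosen with earlier results of these data known. Named genes are Pparg and the 7 exemplar genes, called genes with the largest differences at a mean of at least 5 CPM and no overlap of the diet groups in a genotype, the listed genes of smallest p, and those with the largest HFD effect in WT or KO mice. Another 69 genes were added outside that rule, after values were seen. Whether the mice shared cages or litters is not given in the sources used here. Counts and errors cover the spread between these mice, which were single animals, and counting error. Some genes that entered the fits and lists are not reported here by name.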

Additional observations from a re-analysis of the deposited data

Results flagged for a closer look

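Among 136 groups of 4 or 5 mice, over 34 measures, 12 held a mouse far from the others by Dixon's criterion, and chance alone gives about 1 in 20. In WT Pio mouse 841 Gdf15 was 19.1 CPM (next 7.61), and in WT Pio mouse 845 the cholangiocyte sum was 62.9 CPM (next 48.2). WT HFD-Pio mouse 838 had an acinar sum of 18.7 CPM (next 9.91) and Cela1 at 15.7 CPM (next 9.70).

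KO Pio mouse 12 stood apart in its macrophage sum of 416 CPM (next 326), Myc at 12.3 CPM (next 4.79), Fabp4 at 35.7 CPM (next 10.9) and mt-Nd5 at 5727 CPM (next 9510). KO HFD-Pio mouse 16 had a hepatocyte sum of 117600 CPM (next 89510) and a stellate sum of 210 CPM (next 192). The macrophage sum was lowest in KO HFD-Pio mouse 18, at 296 CPM (next 354), and Myc was highest in KO HFD-Pio mouse 20, at 24.3 CPM (next 8.18).

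The HFD effect under Pio differed between the genotypes for Fdft1, by 2.19. The term that sets this difference against that without drug was called for Cyp7a1 (4.54), Gm23119 (3.09), Fbl (1.57), Cyp2j6 (1.28), Snrnp70 (1.16), Swi5 (1.12), Tnfaip2 (-2.05) and Gm14286 (-2.83).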

How the results depend on the processing

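Counts of called genes depended on the processing more than directions did. The difference of diet effects was called for 66 genes by DESeq2, 982 by limma with a weight for each sample, 0 without a filter on low counts, 47 in the 19 Pio-fed mice alone and 2 with mouse 13, against 1 in the fit of 39 mice. The HFD effect in WT mice was called for 2927 genes by weighted limma, 564 without the filter and 158 with mouse 13. In KO mice it was called for 53 genes by DESeq2, 309 by weighted limma, 4 without the filter, 54 in the 19 mice and 642 with mouse 13. The comparison with the mice without drug gave 17 with RLE size factors, 148 by DESeq2, 722 by weighted limma, 0 without the filter and 1 with mouse 13. With a mouse left out in turn, calls ranged from 0 to 239 for the difference (20 to 869 in the fit of 19 mice), 279 to 2610 in WT mice (839 to 3847), 2 to 46 in KO mice (17 to 72) and 0 to 268 for the comparison without drug. The highest counts for the difference and in WT mice came without WT Pio mouse 841 in both fits, the lowest in WT mice without WT Pio mouse 845, the 46 without WT control mouse 832, and the lows of the 19-mouse fit for the difference and for KO mice without KO Pio mouse 15. Except where a library or the filter itself was changed, the cause was not tested.

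Of the 46 alternatives, 20 left out a mouse without drug, which enters the difference only through the shared spread and scaling and hardly bears on its sign. The log2 difference kept its sign in all 46 alternatives for 127 of 143 named genes. With mouse 13 it turned for Arhgef16 (-0.46), Cd36 (0.14), Enho (-1.32), Fam19a5 (-0.55), Fbl (-0.17), Mogat1 (0.0541), Slc25a20 (0.0074), Snrnp70 (-0.0394), Srebf2 (-0.12) and Tm7sf2 (-0.15), and with sample weights for Ces1b (-0.0467). Without single mice it ranged across 0 for Aox3 (-0.0654 to 0.14), Arhgef16 (-0.11 to 0.19), Cd36 (-0.28 to 0.33), Cela1 (-0.24 to 0.26), Ces1b (-0.12 to 0.13), Ctsb (-0.0092 to 0.36), Enho (-0.12 to 0.67), Gm28548 (-0.0672 to 0.77), Hbb-bs (-0.12 to 0.66) and Mogat1 (-0.62 to 0.28). No paired analysis was possible because mouse numbers are unique to each group. With 4 or 5 mice a group, the median SE of the difference was 0.247 in the fit of 39 mice and 0.206 in that of 19, which limits the detection of small differences.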

Other observations

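Some genes that belong to no group above had large values. Myc, a growth-related transcription factor, had 3.99, 20.99, 30.5, 42.7 and 33.1 CPM in WT Pio mice and 2.21 to 3.64 CPM in WT HFD-Pio mice. It fell by 3.10 in WT mice (adjusted p = 0.00659, edgeR's quasi-likelihood test), and the difference between genotypes was 3.70 (adjusted p = 0.139). Mouse 841 was close to the HFD-Pio group in Myc. Gbp11, annotated as a polymorphic pseudogene of the guanylate-binding proteins, had a difference of 2.85 (adjusted p = 0.0517, and 0.0107 in the fit of 19 mice), and paralogs could share its reads. Aldoc, an aldolase isoform, fell by 1.05 in WT mice and differed by 1.31 (adjusted p = 0.155, and 0.0166 in the fit of 19 mice).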
